A study of Mus musculus with 8 samples.

Results

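The collagen gene family was followed through the esophagi of healthy MGL KO and WT mice. Its members were taken by name, as the gene symbols of the count table that begin with Col, a number, the letter a and a second number, without Col17a1. This rule found 43 genes among the 32849 symbols listed. All 43 had at least 1 count, and 39 passed the filter on low counts and were tested, among 14864 genes tested in all. The 4 that did not pass were Col2a1, Col9a1, Col10a1 and Col19a1.

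MGL, the product of Mgll, is the lipase that degrades the endocannabinoid 2-arachidonoylglycerol. RNA of frozen esophagus tissue from 4 MGL KO mice, which lack the gene in every tissue, and 4 WT mice was sequenced after poly(A) selection, with the question of which genes differ between the genotypes without disease. No treatment was given to either group. Male and female mice 8 to 12 weeks old served in the experiments as a whole, without the sex or age of each sequenced animal. Both groups are whole pieces of esophagus, so fewer cells of a type and less RNA per cell cannot be told apart in these libraries.

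The knocked-out gene matched the labels. Mgll had 12.6, 16.0, 13.1 and 13.2 normalized CPM (read counts scaled to library size with TMM factors) in MGL KO 1 to 4, against 83.3, 66.6, 88.3 and 86.7 in WT 1 to 4. The fall was -2.57 on the log2 scale (SE 0.13, adjusted p = 0.000133, edgeR's quasi-likelihood test). Libraries held 13479069 to 17090152 counts, at which the 3 counts that a count of 0 allows equal 0.167 to 0.271 CPM (counting error only). MGL KO 4 stood apart, as it held 7721 CPM of 5 airway secretory markers and 508.6 CPM of 8 airway ciliated markers, against 0.131 to 47.1 and 4.91 to 9.74 in the other 7. Markers of the esophagus were present in all 8, with summed levels of 2828 to 5228 CPM for 6 basal squamous genes and 32950 to 83399 CPM for 9 skeletal muscle genes. Genes of the Y chromosome were read in all 8 libraries, so each held RNA of males. The sum of 4 such genes was 186 to 224 CPM in MGL KO and 194 to 211 CPM in WT.

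Collagens are the proteins that give tissues their tensile strength. Each is built of 3 chains that wind around each other as a triple helix, for which glycine, the smallest amino acid, has to recur along each chain at a fixed spacing. Types I, III and V form the banded fibrils of the lamina propria and submucosa. Type IV forms the meshwork of basement membranes, type VI forms beaded filaments around cells, and type VII forms the anchoring fibrils that tie squamous epithelium to the tissue beneath. In the esophagus these matrices lie under a stratified squamous epithelium and around striated muscle.

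The glycine repeat is visible in the genes themselves. Glycine is encoded by GGN, so a helical chain reads as a glycine codon followed by 2 other codons, a unit of 9 bases. Below is 1 exon of 54 bases for each of 8 members on which the results turn, the one nearest to the middle of the gene's longest run of such units, 5′ to 3′ in the sense of the gene (GRCm39 genome, exons of GENCODE mouse release 39). Capitals mark the glycine codon that opens each of the 6 units of an exon. The exons of Col3a1 and Col6a5 hold 7 glycine codons each, since 1 more stands inside a unit and is left in lower case.
Col1a1: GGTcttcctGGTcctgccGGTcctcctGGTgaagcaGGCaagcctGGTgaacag
Col1a2: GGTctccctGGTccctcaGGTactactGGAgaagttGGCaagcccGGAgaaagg
Col3a1: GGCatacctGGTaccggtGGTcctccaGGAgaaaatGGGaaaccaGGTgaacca
Col24a1: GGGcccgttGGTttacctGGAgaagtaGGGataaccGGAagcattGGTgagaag
Col4a1: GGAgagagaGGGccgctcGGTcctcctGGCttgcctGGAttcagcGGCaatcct
Col6a1: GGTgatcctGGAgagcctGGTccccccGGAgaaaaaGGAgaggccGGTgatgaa
Col6a5: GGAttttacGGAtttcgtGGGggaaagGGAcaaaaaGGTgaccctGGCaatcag
Col6a6: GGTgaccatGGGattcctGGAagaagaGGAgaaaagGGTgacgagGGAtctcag

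The exon of Col1a1 is the coding exon 29 of 51 exons at chr11:94835740-94835793 on the plus strand. That of Col1a2 is exon 29 of 52 at chr6:4524876-4524929 on the plus strand, and that of Col3a1 is exon 28 of 51 at chr1:45374888-45374941 on the plus strand. Col24a1 is shown by exon 25 of 60 at chr3:145133940-145133993 on the plus strand. Col4a1 is shown by exon 7 of 52 at chr8:11295211-11295264 and Col6a1 by exon 17 of 35 at chr10:76553096-76553149, both on the minus strand. For Col6a5, exon 17 of 41 at chr9:105792193-105792246 is shown, and for Col6a6 exon 17 of 36 at chr9:105632705-105632758, both on the minus strand. The opening glycine codons keep their place in every exon, while the codons between them differ from gene to gene.

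All 43 members held an uninterrupted run of at least 20 such units in their coding sequence, against 21 of 21727 other protein-coding genes (0.097%). The length of the longest run differed between the classes. It was 338 units in Col1a1, 339 in Col1a2, 344 in Col3a1 and 338 in Col5a1. In the fibrillar chains Col24a1 and Col27a1 it was 216 and 217 units, followed in each by a further run of 93 units. Basement membrane chains were interrupted many times, with 16 runs in Col4a1 and 22 in Col4a2, the longest of 40 and 66 units. In type VI the longest run was 87 units in Col6a1 and Col6a2, 45 in Col6a3, 37 in Col6a5 and 42 in Col6a6. The longest run is not the length of the helix. All runs of at least 5 units together held 96 units in Col6a1, 110 in Col6a2, 87 in Col6a3, 90 in Col6a5 and 94 in Col6a6. The exon structure followed the repeat: 64.03% of 1860 internal coding exons of the members were multiples of 9 bases long, against 13.63% in other genes. Of the 625 internal coding exons of the fibrillar genes, 305 (48.8%) were exactly 54 bases long, against 0.43% in genes outside the family.

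**Figure D1:**
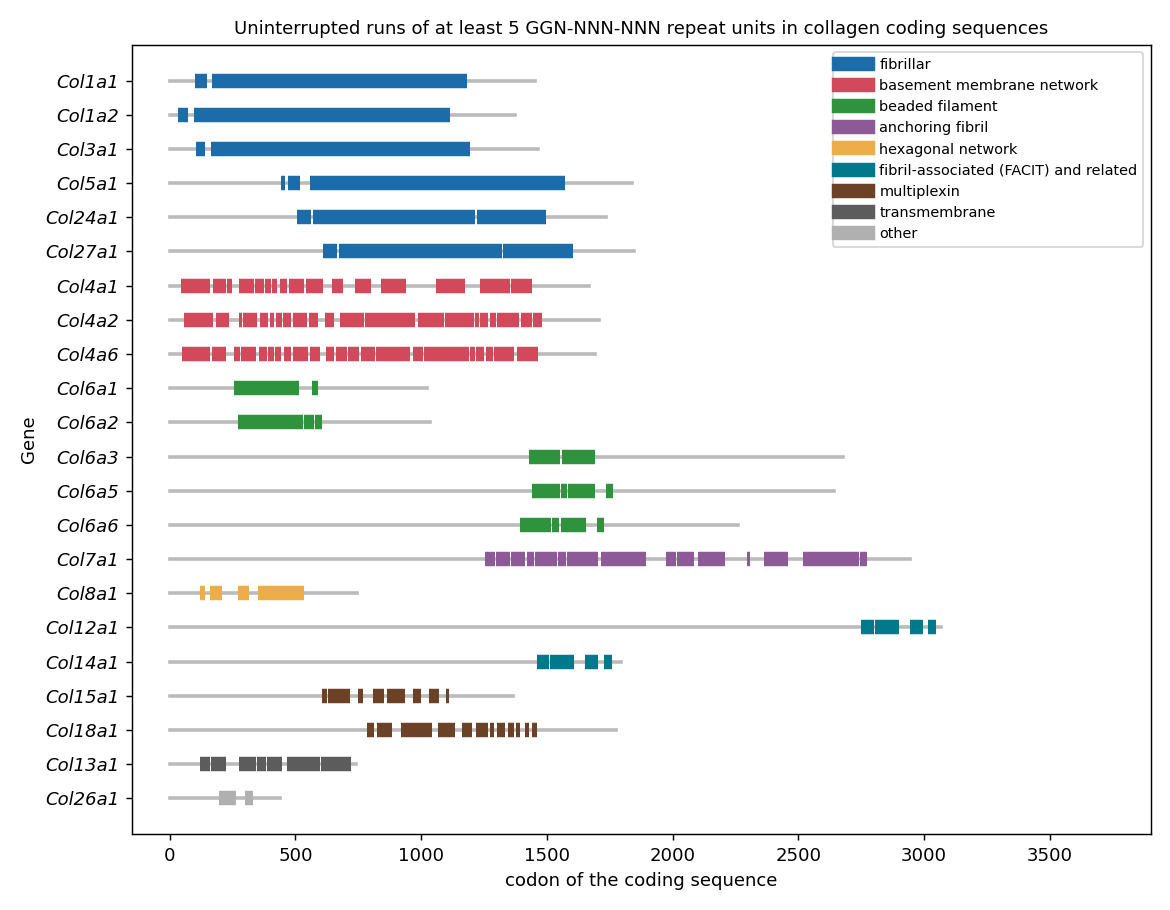
Uninterrupted runs of at least 5 glycine repeat units (coloured bars) along the coding sequence (grey line) of 22 collagen genes, by codon; colours give the class. Col1a1, Col1a2 and Col3a1 hold 1 dominant run, Col4a1 and Col4a2 hold 16 and 22 separate runs, and the type VI chains hold short runs inside a long coding sequence.

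In level per length, the fibril and beaded filament chains led. The mean normalized CPM per kb of exon in WT was 73.1 for Col3a1 (SD 21.2, n = 4), the type III chain of pliable fibrils, and 53.4 for Col1a1 (SD 17.6), the main type I chain. Col6a1 followed at 41.4 (SD 7.22), Col1a2 at 33.1 (SD 8.22), Col4a1 at 24.4 (SD 3.49), Col6a2 at 20.7 (SD 3.80), Col4a2 at 20.3 (SD 2.71), Col7a1 at 17.2 (SD 3.91), Col6a3 at 13.1 (SD 1.47) and Col5a1 at 12.3 (SD 1.96). These 10 genes made up 79.33% of the summed level per length of the family, and Col1a1, Col1a2 and Col3a1 alone 40.96%. Neighbours in this order differed by less than the larger of their SDs, except Col6a1 and Col1a2, Col1a2 and Col4a1, and Col7a1 and Col6a3. The order depended on the length used. With the longest transcript in place of all exons, Col3a1 had 133 CPM per kb, and Col1a2, at 77.1, came second, above Col1a1 at 59.2 and Col6a1 at 43.6, while Col6a2 stood at 37.7. Of the 10 genes, 9 stayed among the first 10. In MGL KO the order of the first 3 genes was the same, at 64.8, 45.04 and 34.6 CPM per kb.

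Type IV was led by Col4a1 and Col4a2, the pair found in nearly every basement membrane, with 85.54% of the type IV level per length in WT. Col7a1, the only chain of the anchoring fibril, stood eighth, above Col6a3. In WT the lowest of the 43 members in level per length were Col19a1, Col2a1, Col10a1 and Col9a1, the genes under the filter. Col2a1, the main cartilage chain, lay at 0.0612 to 1.24 CPM and Col9a1 had no count in 7 of 8 libraries.

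Collagen transcripts took 0.151% to 0.500% of the counts in MGL KO and 0.264% to 0.440% in WT. The summed level of the family was 2747, 1835, 4889 and 2672 CPM in MGL KO 1 to 4, and 4071, 2961, 2803 and 3787 CPM in WT 1 to 4. The highest and the lowest library were both MGL KO, so the WT range lay inside that of MGL KO. MGL KO 3 was the highest of all libraries for 18 of the 39 genes tested and MGL KO 2 the lowest for 26. Fibroblast markers, 11 genes, were also lowest in sum in MGL KO 2, at 1927 CPM against 2283 to 3509 in the other 7. In the same library skeletal muscle markers were highest in sum, at 83399 CPM against 32950 to 70026. Their part in the collagen levels was not tested.

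**Figure D2:**
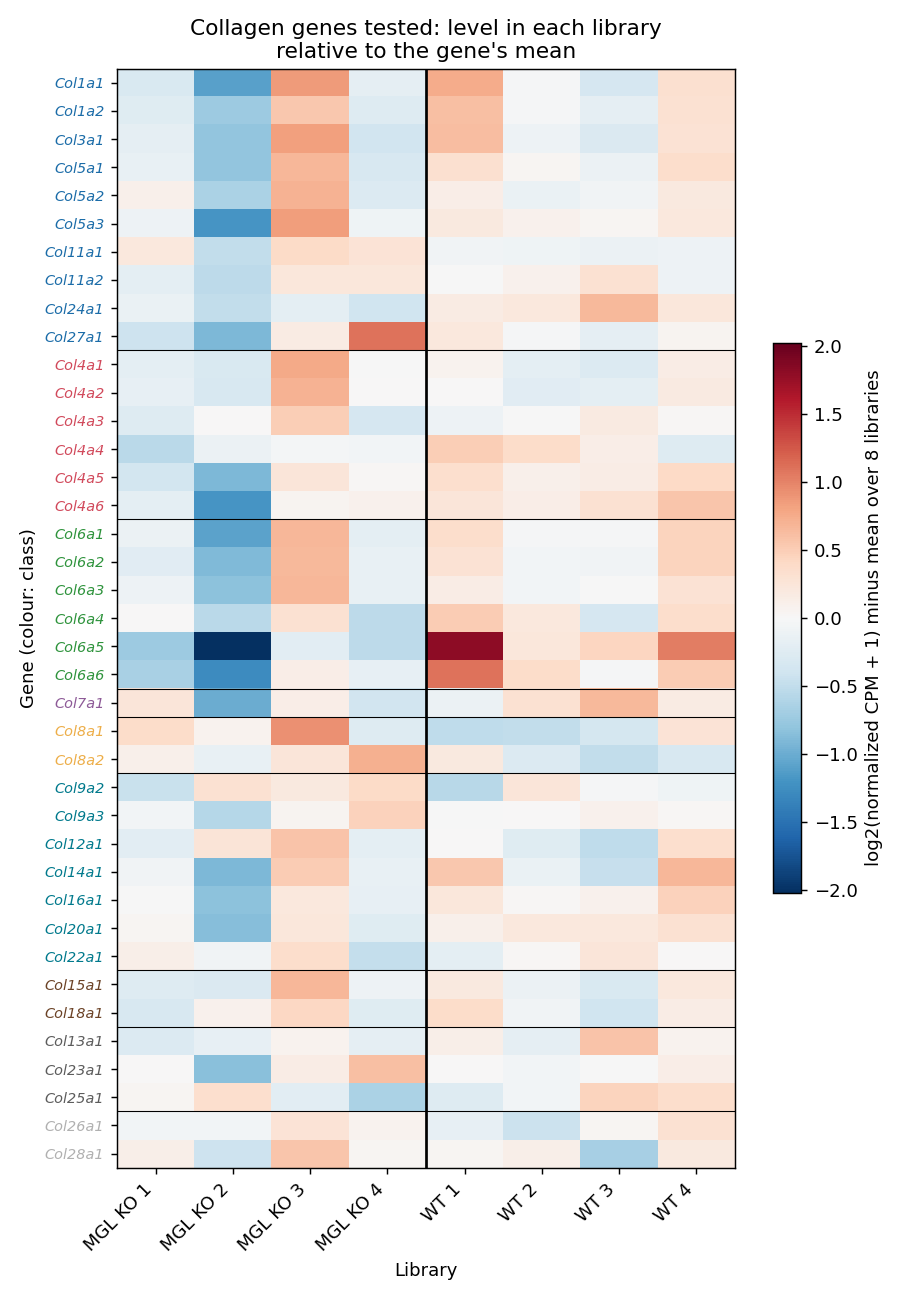
Level of the 39 tested collagen genes in each of the 8 libraries, as log2(normalized CPM + 1) minus the gene's mean, with genes ordered by class and coloured as in the label. Most rows are blue in MGL KO 2 and red in MGL KO 3, and Col6a5 has the widest range.

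No collagen gene differed between the genotypes at an adjusted p under 0.05 in edgeR's quasi-likelihood test, with the smallest adjusted p at 0.478. Over all genes 7 of 14864 passed (0.0471%). At an unadjusted p under 0.05 there were 3 collagen genes (7.69%), against 8.65% of all genes tested. All 3 were lower in MGL KO, namely Col6a5, Col6a6 and Col24a1; of all genes 4.29% were lower and 4.35% higher at this threshold. The groups did not overlap for 3 members (7.69%), Col6a5, Col24a1 and Col4a6, again all lower in MGL KO, and for 2 of them, Col6a5 and Col24a1, with library size alone as the scaling. Among all genes 6.02% did not overlap, 3.30% with MGL KO lower and 2.72% with MGL KO higher. The share of members was thus near the background on both measures, and above it in the lower direction by a margin that rests on 3 genes each. Without MGL KO 3, 13 members (33.3%) did not overlap, all lower in MGL KO, where 10.8% of all genes did not. These included Col6a1, Col6a2, Col6a3, Col1a2, Col5a1 and Col5a3. MGL KO 3 was the highest library for 18 of the 39, so leaving it out lowers MGL KO for those members by construction. With MGL KO 2 left out instead, the lowest library for 26, 4 members (10.3%) did not overlap. Of these 3 were lower and 1, Col11a1, was higher in MGL KO, against 9.48% of all genes. Without WT 4 there were 5, with Col4a4 added on the lower and Col8a1 on the higher side, against 8.34% of all genes. Without MGL KO 4, the library with the airway markers, 0 members were called. The same 3 did not overlap (7.69%), against 10.9% of all genes.

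The fitted change was below 0 for 25 of the 39 genes (64.1%), against 47.0% of all genes, with a median of -0.12 on the log2 scale against 0.02. This median rested on single libraries: it was -0.43 without MGL KO 3 and -0.01 without MGL KO 2. Fibroblast markers were lower with it: 10 of 11 had a lower mean in MGL KO, and the groups did not overlap for 1 of them, Dcn, at 367 to 519 CPM in MGL KO and 523 to 646 CPM in WT. The sum of the 11 was 1927 to 3410.1 CPM in MGL KO and 2681 to 3509 CPM in WT, with means of 2601 and 3078 CPM. All 7 endothelial markers also had a lower mean in MGL KO, without separation of the groups, and their sum was 179 to 328 CPM in MGL KO and 231 to 332 CPM in WT, with means of 258 and 295 CPM. Of 5 macrophage markers, 4 had a lower mean in MGL KO. Other lists did not fall as a whole: 3 of 8 smooth muscle, 3 of 9 skeletal muscle, 2 of 6 basal squamous and 1 of 5 adipocyte markers had a lower mean. Lower means were also seen for 4 of 7 differentiated squamous and 3 of 6 Schwann cell and glia markers. The part of these cells in the collagen median was not tested. Within the family, other tests added 1 call. The exact test of edgeR, which the study's methods name, called 0 members and 65 genes in all (0.437%), and 0 members and 42 genes (0.185%) without the filter. DESeq2 called 1 member, Col6a5 (adjusted p = 0.0215), and 138 genes in all (0.928%), and limma-voom with quality weights called 0 members and 25 genes (0.168%).

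**Figure D3:**
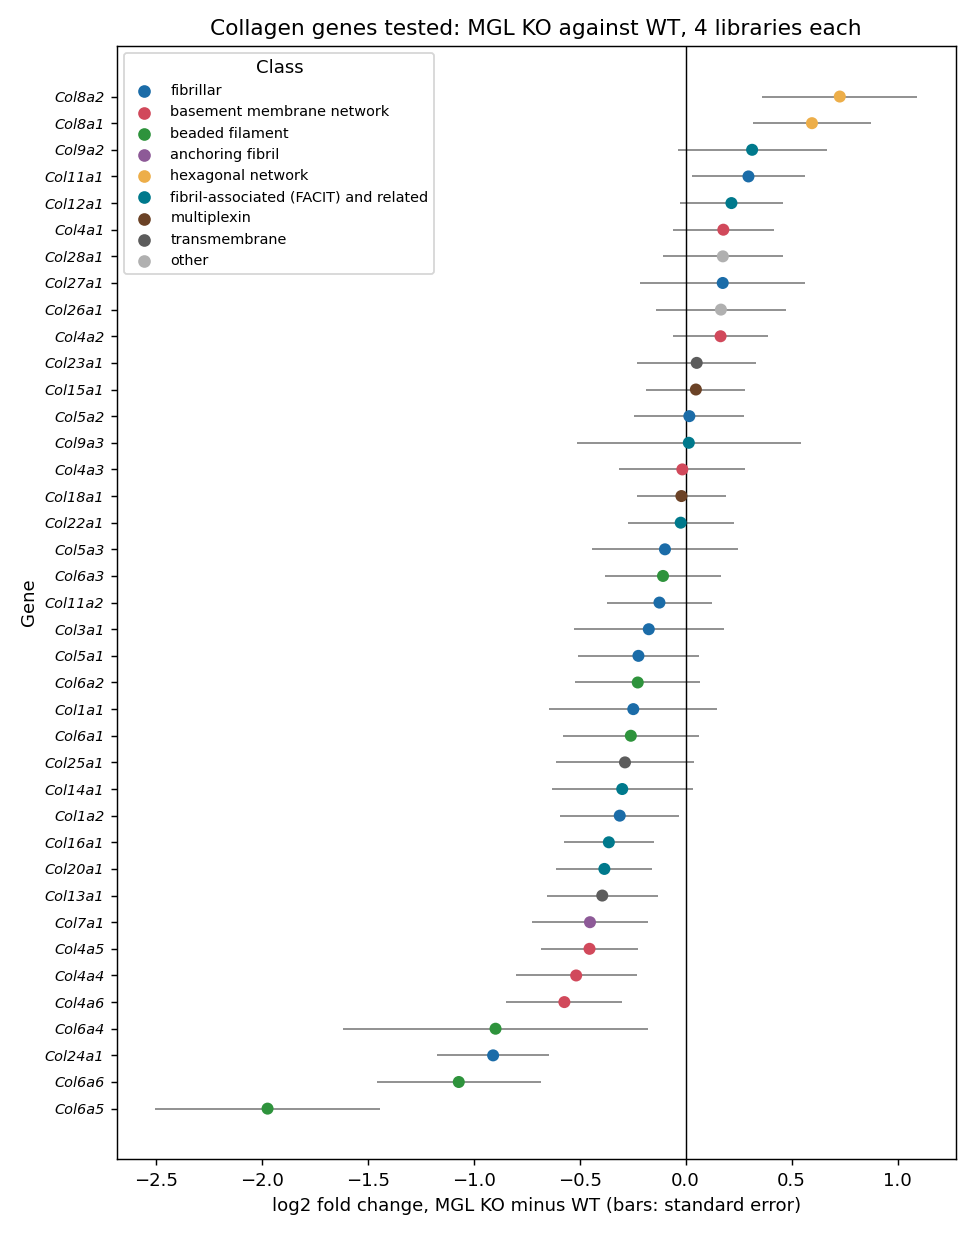
Log2 fold change of MGL KO minus WT with its standard error for the 39 tested collagen genes, 4 libraries per group, ordered by size and coloured by class. Changes run from -1.97 for Col6a5 to 0.73 for Col8a2, and 25 of 39 points lie below 0.

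The beaded filament class showed the widest spread between its members. Its core chains, Col6a1, Col6a2 and Col6a3, assemble into 1 heterotrimer, and Col6a4, Col6a5 and Col6a6 encode alternative chains related to Col6a3. All 6 had a fitted change below 0, with a median of -0.58. Col6a5 had 3.86, 0.993, 5.98 and 4.61 CPM in MGL KO 1 to 4 and 27.2, 8.50, 9.93 and 15.6 CPM in WT 1 to 4. Every MGL KO library lay below every WT library, and WT 1 was well above the other 3 WT libraries. The WT mean was 3.97-fold the MGL KO mean, with 15.3 ± 8.51 against 3.86 ± 2.10 CPM (SD, n = 4 each). On the log2 scale the change was -1.97 (SE 0.53, 95% confidence interval -3.17 to -0.77). By edgeR's quasi-likelihood test, across all genes, the unadjusted p was 0.00481 and the adjusted p = 0.478. Without WT 1 the change was -1.54. WT 1 also stood apart in macrophage markers: of 5 genes, Adgre1, Csf1r, Cd68 and Mrc1 were highest in WT 1 and next in WT 4, which were also the highest and the next for Col6a5. Csf1r had 109 CPM in WT 1 and 66.0 CPM in WT 4, against 30.7 to 44.2 CPM in the other 6. The fifth, Lyz2, was highest in MGL KO 4, and with it the sum of the list, at 1472 CPM, against 973 CPM in WT 1 and 219.98 to 485 CPM in the others. The sum of 5 adipocyte markers ranged from 3.48 to 172 CPM in WT and 9.29 to 181 CPM in MGL KO, with WT 1 highest of WT. The part of these cells in Col6a5 was not tested.

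Col6a6 was also lower in mean in MGL KO, by 2.11-fold. It had 4.10, 2.35, 7.83 and 6.18 CPM in MGL KO 1 to 4 and 16.2, 9.47, 6.97 and 10.6 CPM in WT 1 to 4. MGL KO 3 exceeded WT 3, so the groups overlapped. WT 1 and WT 4, the libraries highest in 4 macrophage markers, were also the highest and the next for Col6a6, and without WT 1 its change was -0.81. The log2 change was -1.07 (SE 0.39, 95% confidence interval -1.95 to -0.19), with an unadjusted p of 0.022 and an adjusted p of 0.523 by the same edgeR test. Exons of Col6a6 overlap those of Pik3r4 and Gm38314 in the annotation. The counting tool and its use of strand are not given in the sources used here, so some of its reads may belong to these neighbours. Col6a5, Col24a1, Col4a6, Col1a1 and the core type VI chains have no such overlap, whereas Col1a2, Col3a1, Col4a1, Col4a2 and Col7a1 do. Col6a4, the least abundant chain, lay at 0.0902 to 0.987 CPM in MGL KO and 0.263 to 1.28 CPM in WT.

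The core chains stood at levels far above these. Col6a1 had 193, 98.4, 335 and 183 CPM in MGL KO 1 to 4 and 268, 207, 206 and 288 CPM in WT 1 to 4. MGL KO 3 was the highest library and MGL KO 2 the lowest. The log2 change was -0.26 (SE 0.32), with an interval of -0.98 to 0.47 and an adjusted p of 0.819 (edgeR). It was -0.61 without MGL KO 3 and -0.027 without MGL KO 2. Col6a2 had 172, 109, 318 and 182 CPM in MGL KO and 248, 195, 192 and 278 CPM in WT. Its change was -0.23 (SE 0.29, adjusted p = 0.826, edgeR), with -0.56 without MGL KO 3 and -0.025 without MGL KO 2. Col6a3, whose chain carries the largest non-helical part, had 136, 82.4, 235 and 133 CPM in MGL KO and 163, 141, 147 and 181 CPM in WT. Its change was -0.11 (SE 0.27, adjusted p = 0.919, edgeR). In all 3 the groups overlapped, and the intervals leave room for changes in either direction.

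Col6a4, Col6a5 and Col6a6 lie next to each other on chromosome 9, all on the minus strand. Col6a5 spans chr9:105733270-105837858 and Col6a6 spans chr9:105564724-105705561, with a gap of 27.71 kb between them, and a gap of 28.79 kb separates Col6a5 from Col6a4. The 250 bases before the annotated start of the 2 genes with the largest fitted changes are given because they are neighbours and were both lower in MGL KO. Both are on the minus strand and are printed in the sense of the gene, at chr9:105837859-105838108 for Col6a5 and chr9:105705562-105705811 for Col6a6 (GRCm39). Capitals mark the motif GGGCGG, the GC box.
Col6a5: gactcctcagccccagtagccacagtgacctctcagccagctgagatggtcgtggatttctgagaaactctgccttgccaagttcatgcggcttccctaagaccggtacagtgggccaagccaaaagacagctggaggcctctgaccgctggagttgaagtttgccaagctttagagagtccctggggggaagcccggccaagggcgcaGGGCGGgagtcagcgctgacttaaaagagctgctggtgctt
Col6a6: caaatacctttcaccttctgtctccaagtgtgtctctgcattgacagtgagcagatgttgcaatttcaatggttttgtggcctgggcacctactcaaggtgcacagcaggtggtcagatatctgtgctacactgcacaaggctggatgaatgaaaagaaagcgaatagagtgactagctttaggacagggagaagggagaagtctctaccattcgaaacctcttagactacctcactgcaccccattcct

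Of 4 short motifs searched for on both strands of these windows, the first was the TATA box TATAAA and the second the CCAAT box. The GC box GGGCGG and the AP-1 site TGANTCA were the others, and no motif contains another. Col6a5 held 1 GGGCGG and Col6a6 held none of the 4. Over the family, GGGCGG was present in 21 of 43 windows (48.84%), against 36.34% of 21757 promoters of the same length. TATAAA was present in 6 (13.95%), against 11.92%, and CCAAT in 15 (34.88%), against 36.47%. TGANTCA was in 0 of 43 windows, against 6.18% of all promoters, which says only that these letters are not in these 250 bases.

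The fibrillar class held 11 genes, 10 of them tested, 3 with a change above and 7 below 0 (median -0.15). Col1a1 had 241, 138, 541 and 262 CPM in MGL KO 1 to 4 and 502, 293, 236 and 373 CPM in WT 1 to 4. The libraries of the 2 groups were interleaved. The log2 change was -0.25 (SE 0.40, interval -1.14 to 0.65, adjusted p = 0.863, edgeR). It was -0.71 without MGL KO 3 and -0.0087 without MGL KO 2. Col1a2, which encodes the second chain of type I, had 305, 217, 528 and 301 CPM in MGL KO and 552, 357, 319 and 449 CPM in WT, with a log2 change of -0.31 (SE 0.28, adjusted p = 0.756, edgeR). This change was -0.61 without MGL KO 3 and -0.15 without MGL KO 2. Col3a1 had 586, 382, 1185 and 510.4 CPM in MGL KO and 1028, 617, 542 and 817 CPM in WT. Its change of -0.17 (SE 0.35, adjusted p = 0.897, edgeR) turned to 0.02 under limma-voom with quality weights. For these 3 chains the spread inside a group was larger than the difference between the groups.

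Col24a1 was the fibrillar gene with the largest fitted change. It encodes a minor fibrillar chain and spans chr3:144998233-145257766. The gene had 1.90, 1.26, 1.79 and 1.41 CPM in MGL KO 1 to 4 and 2.57, 2.68, 4.01 and 2.74 CPM in WT 1 to 4. The groups did not overlap, with 1.59 ± 0.303 against 3.00 ± 0.678 CPM (SD, n = 4 each). The WT mean was 1.89-fold the MGL KO mean. This is a log2 change of -0.91 (SE 0.26, interval -1.51 to -0.31), with an unadjusted p of 0.00748 and an adjusted p of 0.478 (edgeR).

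The other fibrillar genes overlapped between the groups. The type V chains, which set the width of type I fibrils, ranged from 54.2 to 152 CPM in MGL KO and 87.5 to 123 CPM in WT for Col5a1, from 67.4 to 173 and 96.3 to 121 CPM for Col5a2, and from 28.1 to 117 and 66.7 to 75.9 CPM for Col5a3. Of the type XI chains, Col11a1 lay at 2.26 to 4.99 CPM in MGL KO and 3.22 to 3.35 CPM in WT, and Col11a2 at 3.79 to 7.14 and 5.41 to 7.56 CPM. Col27a1, a chain known from cartilage, had 16.3, 11.3, 24.9 and 48.5 CPM in MGL KO 1 to 4 and 19.4 to 25.7 CPM in WT. Its highest value was in MGL KO 4, the library with the airway markers.

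In the basement membrane class, 2 of 6 genes had a change above 0 and 4 below (median -0.23). Col4a1 had 165, 152, 320.4 and 188 CPM in MGL KO 1 to 4 and 198, 165, 156 and 211 CPM in WT 1 to 4. Col4a2 had 134, 121, 247 and 152 CPM in MGL KO and 152, 129, 132 and 171 CPM in WT. In both, MGL KO 3 stood above the other 7 libraries, which lay close together. The changes were 0.18 (SE 0.24, adjusted p = 0.830) and 0.17 (SE 0.22, adjusted p = 0.833) by edgeR's test, and without MGL KO 3 they were -0.12 and -0.10.

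Col4a6 was the member of this class whose groups did not overlap. Together with Col4a5 it forms a network found in basement membranes of epithelium and smooth muscle, and both lie head to head on the X chromosome, Col4a6 at chrX:139948399-140257072, with starts 1282 bases apart. Col4a6 had 14.6, 6.86, 17.7 and 18.0 CPM in MGL KO 1 to 4 and 20.2, 18.7, 21.1 and 25.3 CPM in WT 1 to 4. MGL KO 4 and WT 2 nearly touched, and scaled by library size alone the groups overlapped, with MGL KO 4 at 20.1 and WT 2 at 19.2 CPM. The log2 change was -0.57 (SE 0.27, interval -1.19 to 0.05), with an unadjusted p of 0.0659 and an adjusted p of 0.609 (edgeR). It was -0.34 without MGL KO 2 and -0.70 without MGL KO 4. Col4a5 ranged from 17.3 to 39.7 CPM in MGL KO and 35.8 to 44.6 CPM in WT. The chains of kidney and lung basement membranes were low, with Col4a3 at 1.85 to 4.07 CPM in MGL KO and 2.34 to 3.09 CPM in WT and Col4a4 at 1.90 to 3.14 and 2.54 to 5.02 CPM.

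Col7a1, the anchoring fibril chain, is secreted by basal keratinocytes and fibroblasts. It had 174, 72.6, 161 and 111 CPM in MGL KO 1 to 4 and 134, 182, 229.9 and 164 CPM in WT 1 to 4. The groups overlapped, and MGL KO 2 was lowest, as it was for the sum of the 6 basal squamous markers, with 2828 CPM against 2943 to 5228 CPM. Singly, Krt15, Itgb4 and Itga6 were lowest in MGL KO 2, and Krt5, Krt14 and Trp63 were lowest in WT 3. For Col7a1 the fitted log2 change was -0.45 (SE 0.28, interval -1.07 to 0.17, adjusted p = 0.665, edgeR). It was -0.25 without MGL KO 2 and -0.62 without MGL KO 1. WT 3 was the highest library for Col7a1 and the second lowest for the sum of the basal markers.

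The hexagonal network chains, which build the sheets under endothelium and cornea, were the class with the highest median, 0.66 over 2 genes. Col8a1 had 39.9, 31.9, 58.5 and 25.2 CPM in MGL KO 1 to 4 and 21.1, 21.2, 23.6 and 37.0 CPM in WT 1 to 4. All MGL KO libraries were above 3 of the WT libraries and 2 of them were above WT 4. Col8a2 ranged from 1.53 to 3.65 CPM in MGL KO and 0.986 to 2.23 CPM in WT. Neither had an unadjusted p under 0.05.

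**Figure D4:**
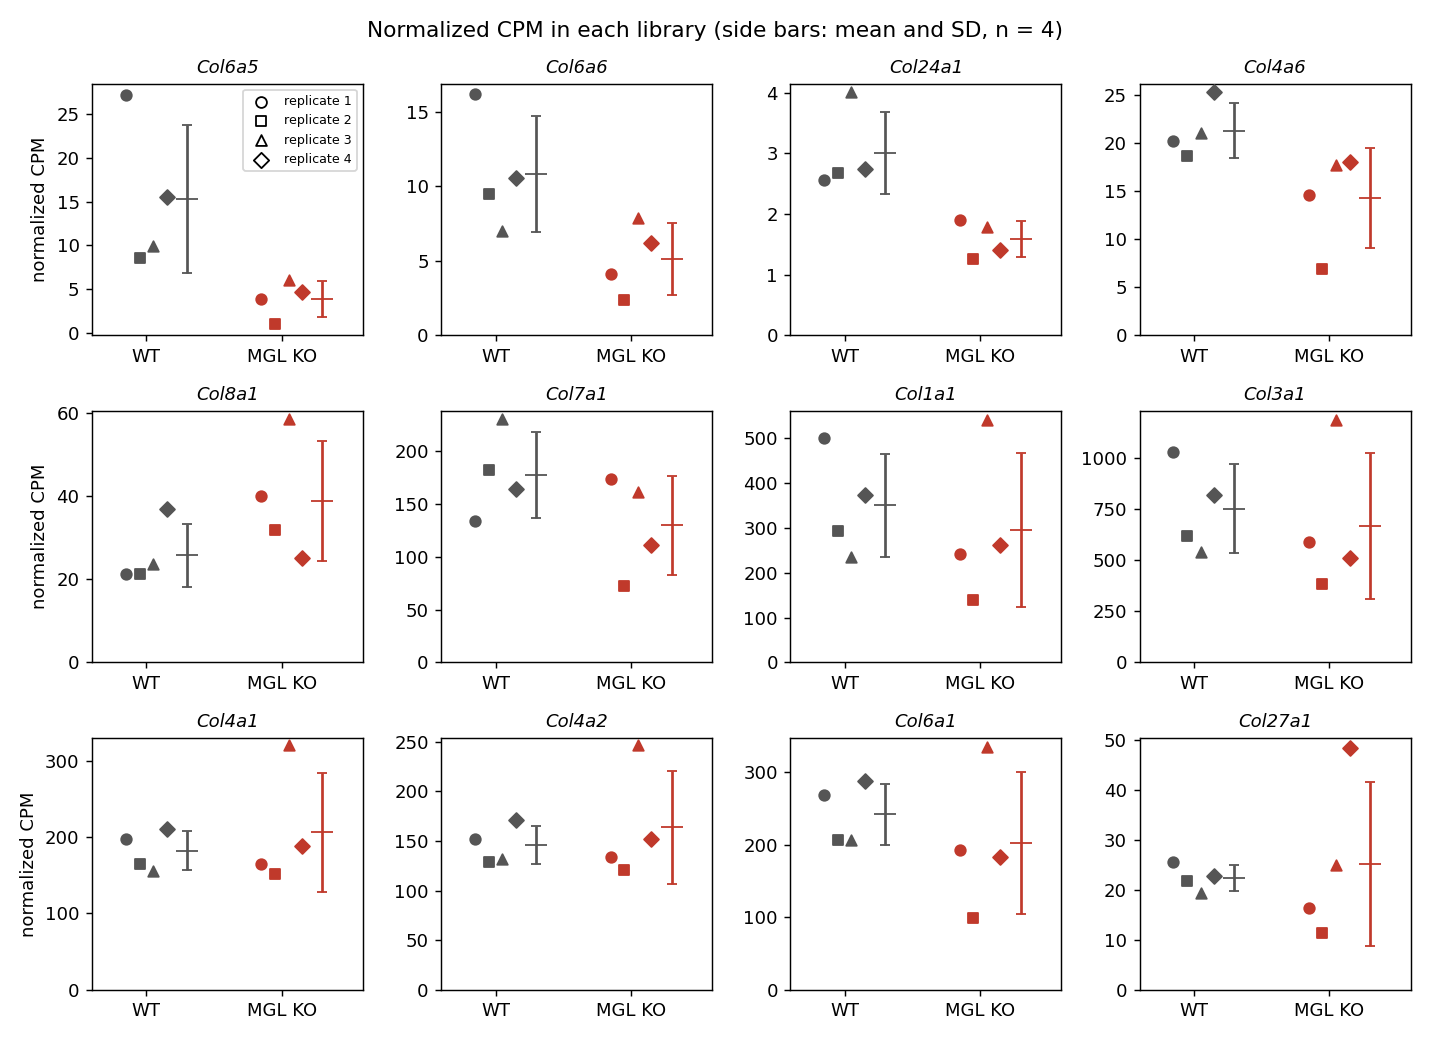
Normalized CPM of 12 collagen genes in each WT (grey) and MGL KO (red) library, with marker shapes for replicates 1 to 4 and bars for the mean and SD (n = 4). With TMM scaling, Col6a5, Col24a1 and Col4a6 do not overlap between the groups, and MGL KO 3 is the highest library for Col1a1, Col3a1, Col4a1, Col4a2, Col6a1 and Col8a1.

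The fibril-associated class, whose members sit on the surface of fibrils, held 9 genes, 7 of them tested, 3 above and 4 below 0 (median -0.02). Col12a1 lay at 20.1 to 35.6 CPM in MGL KO and 16.1 to 30.2 CPM in WT, and Col14a1 at 22.4 to 61.5 and 30.8 to 68.6 CPM. Col16a1 lay at 23.7 to 50.2 CPM in MGL KO and 43.6 to 59.6 CPM in WT, and Col20a1 at 8.12 to 18.4 and 16.6 to 19.4 CPM. Col22a1, known from muscle-tendon junctions, lay at 3.54 to 7.09 CPM in MGL KO and 4.52 to 6.51 CPM in WT. Col9a2 reached at most 3.37 CPM and Col9a3 at most 1.24 CPM in any library. All of these overlapped between the groups.

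The multiplexins, basement membrane collagens that carry long side chains of sugars, overlapped as well. Col15a1 lay at 55.9 to 111 CPM in MGL KO and 55.7 to 80.0 CPM in WT, and Col18a1, the source of endostatin, at 42.7 to 72.3 and 40.4 to 69.4 CPM. Of the transmembrane collagens, Col13a1 lay at 2.51 to 3.45 CPM in MGL KO and 2.74 to 5.33 CPM in WT, Col23a1 at 6.50 to 19.5 and 11.99 to 13.8 CPM, and Col25a1 at 2.25 to 5.41 and 3.24 to 5.98 CPM. The remaining members, Col26a1 and Col28a1, lay at 1.71 to 2.40 and 6.41 to 13.5 CPM in MGL KO and at 1.08 to 2.48 and 5.19 to 10.3 CPM in WT.

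Of the 4 members under the filter, Col10a1, the chain of hypertrophic cartilage, was read almost solely in MGL KO 4. It had 39 counts there (2.19 CPM) and at most 1 count in each of the other 7 libraries, and its exons overlap those of Nt5dc1. Col2a1 was also highest in this library, at 1.24 CPM, against 0.0612 to 0.617 CPM elsewhere, and Col9a1 had 2 counts in MGL KO 4 and 0 in the others, which allows up to 0.167 to 0.271 CPM. Of 9 cartilage markers, 3 were highest in MGL KO 4, namely Acan, Ucma and Snorc, at 0.899, 1.07 and 0.225 CPM, against at most 0.0652, 0.271 and 0 CPM elsewhere. The other 6 were highest in another library. Among them, Sox9, the most abundant, was at 4.10 CPM in MGL KO 4 against 4.04 to 6.74 CPM elsewhere, and Matn3 was at 0 there. The sum of the 9 was 10.6 CPM in MGL KO 4 and 7.56 to 9.61 CPM elsewhere. The part of cartilage or airway tissue in these counts was not tested. Col19a1 had 4 to 13 counts in every library.

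For several pairs of collagen chains, the ratio of the counts varied less between libraries than the levels did. This held for chains that assemble together and for Col3a1 and Col1a1, chains of different types. Pairs of genes outside the family were not compared. The ratio of Col4a1 to Col4a2 counts was 1.18 to 1.30 in the 8 libraries, a 1.10-fold range, while the levels of the 2 genes ranged 2.11-fold and 2.04-fold. The 2 genes lie head to head on chromosome 8 on opposite strands, and their annotated starts are 355 bases apart, so their annotated 5′ ends overlap. The ratio of Col6a1 to Col6a2 was 0.904 to 1.12, a 1.24-fold range, with levels that ranged 3.41-fold and 2.92-fold. Col6a3 over Col6a1 was 0.610 to 0.838 (1.37-fold). Among the fibrillar chains, Col1a1 over Col1a2 was 0.637 to 1.02 (1.61-fold), Col3a1 over Col1a1 was 1.95 to 2.76 (1.42-fold) and Col5a1 over Col5a2 was 0.753 to 1.03 (1.37-fold). Col5a3 over Col5a1 ranged 1.56-fold and Col4a5 over Col4a6 1.44-fold. The pair Col4a3 and Col4a4 was different, with a ratio of 0.467 to 1.29 (2.77-fold), wider than the range of either level (2.19-fold and 2.64-fold), at low counts. These are ratios of counts, not of molecules, since the genes differ in length.

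The ratios of the alternative type VI chains to Col6a1 varied more. Col6a5 over Col6a1 was 0.0200, 0.0101, 0.0178 and 0.0252 in MGL KO 1 to 4 and 0.102, 0.0412, 0.0482 and 0.0541 in WT 1 to 4, a 10.1-fold range. The groups did not overlap, with a log2 difference of -1.73 (two-sided exact permutation p = 0.0286, the smallest 4 against 4 libraries can give, and 0.223 after adjustment over 13 ratios). Col6a6 over Col6a1 was 0.0213 to 0.0338 in MGL KO and 0.0338 to 0.0604 in WT (exact permutation p = 0.0571). Col6a5 over Col6a6 was 0.423 to 0.940 in MGL KO and 0.898 to 1.68 in WT. None of the 13 ratios passed after adjustment.

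**Figure D5:**
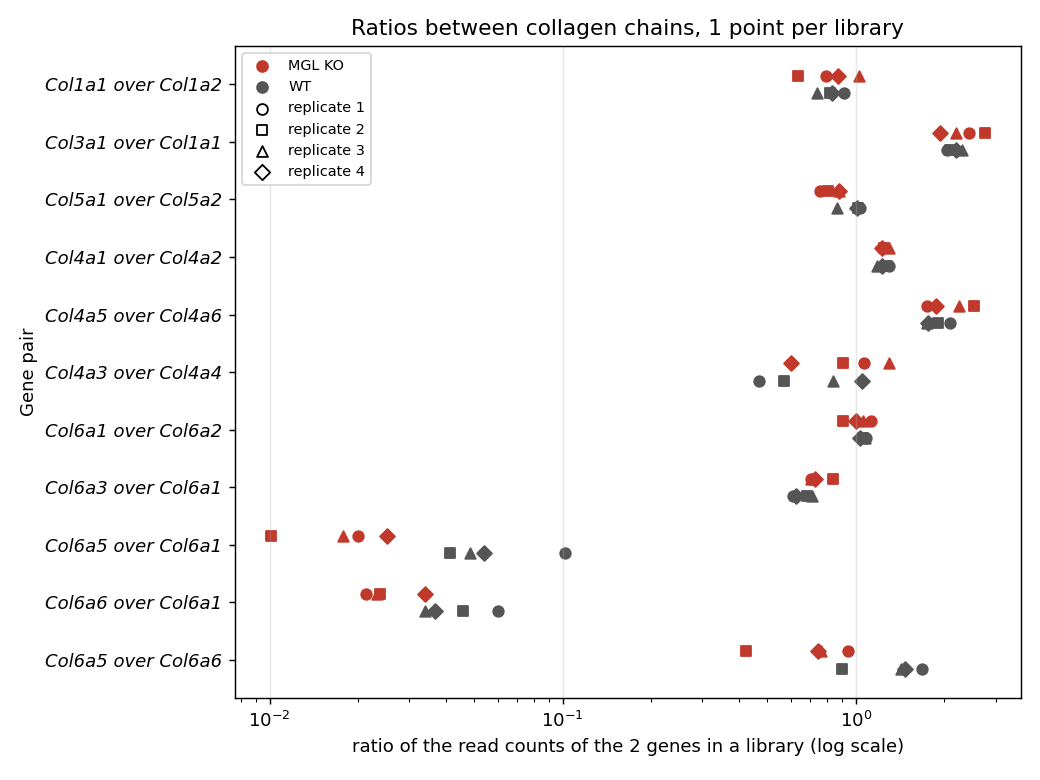
Ratio of the read counts of 2 collagen genes in each library for 11 pairs, on a log axis, with MGL KO in red, WT in grey and marker shapes for replicates 1 to 4. Col4a1 over Col4a2 stays between 1.18 and 1.30, whereas Col6a5 over Col6a1 runs from 0.0101 to 0.102 with all MGL KO points below all WT points.

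The genes that modify, fold, secrete, cut, cross-link and bind collagen were followed as a list of 48, of which 47 were tested. None passed the adjusted threshold in edgeR's quasi-likelihood test, and 3 had an unadjusted p under 0.05 (6.38%, against 8.65% of all genes). The same 3 did not overlap between the groups (6.38%, against 6.02%). The changes were above 0 for 23 and below 0 for 24 (median -0.02).

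Of the 15 genes of hydroxylation and glycosylation, 7 were above and 8 below 0. P4ha2, a catalytic subunit of the prolyl hydroxylase that stabilises the helix, had 46.8, 48.3, 51.0 and 52.2 CPM in MGL KO 1 to 4 and 29.5, 32.8, 35.2 and 37.6 CPM in WT 1 to 4. All MGL KO libraries were above all WT libraries, and the libraries of a group lay close together. Its fitted log2 change was 0.55 (SE 0.10, adjusted p = 0.212, edgeR's quasi-likelihood test). DESeq2 called it, and so did the exact test after the filter, but not without it, and limma-voom with quality weights did not. P4ha1, the other main catalytic subunit, had 81.9, 102, 86.9 and 85.7 CPM in MGL KO and 74.5, 70.4, 74.0 and 64.4 CPM in WT, without overlap and with a log2 change of 0.33 (SE 0.10, adjusted p = 0.478, edgeR).

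In the other roles, 6 of 9 genes of folding and secretion were above 0, and 1 of 8 of propeptide processing. Serpinh1, which encodes the collagen chaperone HSP47, had 217, 244, 287 and 252 CPM in MGL KO 1 to 4 and 259, 183, 233 and 206 CPM in WT 1 to 4, with a change of 0.18 (SE 0.14). Tll2, a tolloid-like protease, had 3.00, 2.35, 3.08 and 2.98 CPM in MGL KO and 4.35, 4.39, 5.85 and 6.13 CPM in WT. Its groups did not overlap, and its change was -0.86 (SE 0.22, adjusted p = 0.433, edgeR).

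Of the cross-linking enzymes, 4 of 6 were above 0, and of the receptors 5 of 9. Lox, the lysyl oxidase that starts cross-links, had 5.27, 12.4, 11.2 and 9.16 CPM in MGL KO 1 to 4 and 15.5, 5.02, 4.73 and 7.37 CPM in WT 1 to 4. Ddr2, a receptor for fibrillar collagen, had 41.6, 50.4, 73.1 and 48.0 CPM in MGL KO and 64.4, 52.9, 48.7 and 76.9 CPM in WT. Both overlapped between the groups, with changes of 0.22 (SE 0.42) and -0.19 (SE 0.20).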

How the data were processed

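Poly(A) RNA of 4 MGL KO and 4 WT esophagi was sequenced for the authors by GENEWIZ on 2 models of the Illumina NovaSeq. Which library ran on which is not given in the sources used here, so no test could take the instrument into account. Per the submitters' notes, reads were checked with FastQC 0.11.9, trimmed with Cutadapt and aligned to GRCm39 with STAR 2.7.10b. The authors deposited whole-number counts per gene symbol, not normalized. The annotation, counter and strand setting are not given in the sources used here.

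Members, lists and tests were chosen with earlier results of these data known. Genes were kept by filterByExpr (minimum count 10), scaled by TMM and compared with edgeR 4.0.16 (quasi-likelihood test, R 4.3.3, Benjamini-Hochberg over 14864 genes, threshold 0.05). P-values set the difference between the groups against the spread between these libraries. Alternatives were the exact test, DESeq2 1.42.0, limma-voom (limma 3.58.1), other scalings and filters, a replicate block, a Y-linked covariate and leaving out each library. Since Y-linked genes were read in every library, that covariate does not separate the sexes. On simulated counts for 14864 genes with 200 changed, the quasi-likelihood test recovered 60.5% (5.47% false calls). In the same simulation DESeq2 recovered 73.0% (21.9% false), the exact test 72.5% (16.2% false) and limma-voom 58.0% (4.13% false). Fold change and test are given for members with an unadjusted p under 0.05 or without overlap and for 9 defining chains. Lengths, exons and sequences came from GENCODE mouse release 39 on GRCm39 (pysam 0.24.0), where all 43 members matched. Exons of 27 members overlap another gene.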

Additional observations from a re-analysis of the deposited data

Results flagged for a closer look

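Among 80 comparisons of the 4 libraries of 1 group (each tested collagen gene and the family sum in both groups), 3 had 1 library far from the others by Dixon's criterion (0.829 for 4 values), where chance gives about 4. Col15a1 had 111 CPM in MGL KO 3, against 64.0 CPM in the next library of the group. Col24a1 had 4.01 CPM in WT 3, against 2.74 CPM in the next WT library, and without WT 3 its log2 change was -0.73. Col8a1 had 37.0 CPM in WT 4, against 23.6 CPM in the next.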

How the results depend on the processing

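With 11 other settings that kept all libraries and 8 fits that left out 1, the number of collagen genes called stayed at 0, except 1 with DESeq2 (Col6a5). The log2 change of Col6a5 ran from -2.05 to -1.53 over the 11 settings (adjusted p 0.0215 to 0.840) and from -2.26 to -1.54 with 1 library left out. Col24a1 ran from -0.93 to -0.66 and Col6a6 from -1.14 to -0.93 over the 11 settings, and with 1 library left out from -1.002 to -0.73 and from -1.35 to -0.81. Of the synthesis list, 1 gene (P4ha2) was called by the exact test and by DESeq2. Over the whole table the 7 calls became 65 with the exact test, 42 with the exact test on all genes, 138 with DESeq2, 25 with limma-voom, 2 without the filter, 3 with the Y-linked covariate, 13 at an adjusted p under 0.1, and 2 to 5 with 1 library left out. Of these calls 3 of 7 were higher in MGL KO, against 5 of 6 with library size alone, 42 of 65 and 30 of 42 with the exact tests, 79 of 138 with DESeq2 and 20 of 25 with limma-voom. The median change of the collagen genes was -0.040 with limma-voom and -0.21 with the Y-linked covariate, and ran from -0.43 to -0.0083 with 1 library left out. The number of members without overlap was 2 with library size alone, where Col4a6 overlapped (5.13% of all genes did not), and ran from 3 to 13 with 1 library left out. The 13 were seen without MGL KO 3, the highest library for 18 of the 39. All were lower in MGL KO, where 10.8% of all genes did not overlap. There were 5 without WT 4 (8.34%) and 4 without MGL KO 2, 1 of them higher in MGL KO (9.48%). Signs turned for Col3a1 (0.023) and Col6a3 (0.046) with limma-voom. With 1 library left out, Col3a1 ran from -0.61 to 0.021, Col6a3 from -0.43 to 0.093, Col4a1 from -0.12 to 0.30 and Col4a2 from -0.10 to 0.29. The cause was not tested.

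Libraries with the same number shared only the number (correlations of their deviations -0.31 to 0.05). With the replicate block, 0 members and 2 genes in all were called, and the median of the members was -0.27. Members near the floor of 3 counts (0.167 to 0.271 CPM), such as Col9a1, could not be compared at this depth.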
